A study of Bos taurus and Sus scrofa with 6 samples.

Results

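TEX101, LY6K and LYPD4 encode small germ cell surface proteins of the LY6/uPAR family, which share a compact disulfide-rich fold and are mostly held at the membrane by a glycosylphosphatidylinositol (GPI) lipid anchor. They are 3 of the 19994 genes counted in cattle and 3 of the 22694 counted in pig, matched by symbol, and all are listed in both species. The choice followed earlier results of these data, in which their transcripts lay in germ cells. Their own levels, their co-occurrence, their stage and their contrast between species are therefore given as description, with no test.

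The data are single-cell RNA-sequencing counts of total testicular cells from Holstein cattle at 4.5 months (n = 3) and pigs of mixed breed at 3 months (n = 3), all prepubertal and untreated, with the testes taken at castration. Live cells were loaded on a droplet system (10X Genomics, v2 chemistry) in which a barcode marks the cell and a unique molecular identifier (UMI) marks the captured molecule. No cells were sorted and 1 library was made per animal, although 2 libraries of each species repeat a testis number in their titles and differ only in the tag that follows. Species, age, breed and annotation vary together, so that none of them can be told apart in a contrast of pig with cattle.

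In mice, TEX101 and LY6K proteins bind each other on the surface of testicular germ cells, and LYPD4 is found in testis as well. Males that lack any of these proteins produce sperm that do not pass from the uterus into the oviduct, and ADAM3, a sperm membrane protein needed for that passage, is missing from their sperm. TEX101 acts on the way to mature sperm and is then shed from the cell surface by the testis form of angiotensin-converting enzyme. Prepubertal testes hold spermatogonia and, where the first wave of spermatogenesis has begun, spermatocytes in early meiosis.

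In the pig genome (Sscrofa11.1) TEX101 and LYPD4 lie on the same strand of chromosome 6, 248.159 kb apart, in a stretch that also holds the family members CD177 and LYPD3, at 15.795 kb and 66.412 kb from TEX101. TEX101 is annotated at chr6:50271730-50274745 on the plus strand with 5 exons, and LYPD4 at chr6:50010272-50023571 on the plus strand with 4 to 5 exons in its 5 transcripts. LY6K lies in the other LY6 cluster, at chr4:1391736-1436059 on the plus strand, with 4 to 6 exons in 2 transcripts. Its nearest family members are LY6D at 7.97 kb and GML at 27.63 kb. Each of the genes overlaps an annotated gene on the opposite strand, DMRTC2 in the case of LYPD4, and LY6K also overlaps LOC110260400 on its own strand. How reads in such overlaps were counted is not given in the sources used here.

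The 250 bases upstream of each annotated start are shown because the genes shared a cell population in pig, and these are the windows in which the shared and unshared letters of their promoters can be read (RefSeq, Sscrofa11.1, plus strand, 5′ to 3′). Capitals mark MYB core motifs (AACGG or AACTG, on either strand), the letters bound by MYB proteins such as the spermatocyte factor MYBL1, and CRE motifs (TGACGT, either strand).
TEX101, chr6:50271480-50271729: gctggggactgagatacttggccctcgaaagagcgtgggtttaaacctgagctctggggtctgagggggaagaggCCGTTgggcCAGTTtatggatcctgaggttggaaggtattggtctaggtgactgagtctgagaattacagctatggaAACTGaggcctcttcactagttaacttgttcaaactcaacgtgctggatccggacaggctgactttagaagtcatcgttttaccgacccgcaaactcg
LYPD4, chr6:50010022-50010271: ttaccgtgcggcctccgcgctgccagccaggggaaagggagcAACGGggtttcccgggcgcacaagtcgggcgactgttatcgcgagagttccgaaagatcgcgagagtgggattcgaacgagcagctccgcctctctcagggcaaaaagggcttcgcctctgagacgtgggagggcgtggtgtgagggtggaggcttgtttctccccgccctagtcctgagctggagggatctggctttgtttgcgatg
LY6K, chr4:1391486-1391735: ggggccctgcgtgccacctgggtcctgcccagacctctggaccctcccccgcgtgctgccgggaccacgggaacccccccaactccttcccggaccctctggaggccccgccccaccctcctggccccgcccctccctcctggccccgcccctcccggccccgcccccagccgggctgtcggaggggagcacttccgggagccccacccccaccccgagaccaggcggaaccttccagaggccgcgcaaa
The TEX101 window held 3 MYB cores, starting 175, 166 and 98 bases upstream, the LYPD4 window held 1 at 208 bases, and the LY6K window held 0. At least 1 MYB core was found in 43.66% of the 19556 pig windows of the same length, so that its presence is common. No CRE motif was found in the 3 windows, against 6.82% of all windows. The windows differed in base composition, with 51.2% G or C in TEX101, 62.4% in LYPD4 and 77.2% in LY6K, against a median of 57.6% over all windows. LY6K carried 4 GC boxes (GGGCGG, either strand), which 45.9% of windows carried at least once, LYPD4 carried 1 and TEX101 carried 0. These matches describe letters only, and binding was not measured. The cattle files use ARS-UCD1.2, and no cattle coordinates or sequences are given here.

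The cells kept numbered 2236 to 8138 per library, with a median of 789 to 5878 UMIs. Cattle 1 and pig 1 were the shallowest libraries, with medians of 789 and 889 UMIs against 1683 to 5878 in the others. The kept cells of any 2 libraries had 8 to 61 barcodes in common. Germ-like cells were those of clusters named from germ cell markers such as the helicase DDX4, with the members themselves left out of the clustering. They numbered 82, 216 and 218 in cattle 1, 2 and 3 (516 in all, 1 cluster) and 647, 258 and 698 in pig 1, 2 and 3 (1603 in all, 4 clusters). DDX4 stood at 83.0 CPM (the UMIs of a gene scaled to a fixed total, here over the pooled cells) in cattle germ-like cells and at 0 to 1.98 CPM in the other named cell types, and at 73.0 CPM against 1.75 to 9.06 CPM in pig. A further pig cluster of 212 cells, of which 98.1% came from pig 2, shared leading genes with the germ-like clusters but carried myoid markers and stayed unnamed.

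TEX101 was found in germ-like cells of every animal. In cattle its level was 51.3 CPM in animal 1 (15 UMIs), 26.9 in animal 2 (35 UMIs) and 22.8 in animal 3 (85 UMIs), a mean of 33.6 ± 15.4 CPM (SD, n = 3). In pig it was 155 CPM in animal 1 (317 UMIs), 12.3 in animal 2 (44 UMIs) and 107 in animal 3 (1235 UMIs), a mean of 91.3 ± 72.5 CPM (SD, n = 3). Pig 1 and pig 3 lay above all cattle, but pig 2 lay below all cattle, so the ranges of the species overlapped. The pig level rests on the naming of clusters: when marker levels were compared with all other cells instead of the median cluster, clusters 8 and 10 were no longer named germ-like, and the pig means were 15.5 CPM for TEX101, 38.3 for LY6K and 13.5 for LYPD4. A TEX101 UMI was found in 12.2%, 13.9% and 25.7% of germ-like cells in cattle 1, 2 and 3 and in 15.6%, 9.30% and 28.2% in pig 1, 2 and 3, highest in the deepest library of each species.

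LY6K, the binding partner of TEX101, was at 106, 159 and 143 CPM in germ-like cells of cattle 1, 2 and 3 (31, 207 and 535 UMIs), a mean of 136 ± 27.3 CPM (SD, n = 3). In pig it was at 258, 35.9 and 200 CPM (529, 128 and 2312 UMIs), a mean of 165 ± 115 CPM (SD, n = 3). The cattle animals lay close together and the pigs wide apart, with the cattle inside the pig range. A LY6K UMI was seen in 25.6%, 46.8% and 69.3% of cattle germ-like cells and in 21.3%, 29.1% and 61.3% of those of pig.

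LYPD4 was at 70.8, 27.2 and 75.8 CPM in germ-like cells of pig 1, 2 and 3 (145, 97 and 877 UMIs), a mean of 58.0 ± 26.7 CPM (SD, n = 3), with a UMI in 9.27%, 15.1% and 35.8% of cells. In cattle it had no UMI in the 82 and 216 germ-like cells of animals 1 and 2, which allows shares of up to 3.66% and 1.39% of cells with a UMI. Cattle 3 had 183 LYPD4 UMIs (49.0 CPM), but 181 of them lay in a single barcode of 178182 UMIs. The next deepest kept cell of that library, of any type, held 42619. Without that barcode LYPD4 stood at 0.563 CPM in cattle 3, from 1 cell, so the overlap of the species in LYPD4 rested on that barcode alone. The same barcode held 433 UMIs of LDHC, the lactate dehydrogenase of spermatocytes and sperm, 29 of the meiotic cyclin CCNA1, 12 of the protamine PRM2 and 10 of the acrosin gene ACR, but 8 of LY6K and 0 of TEX101.

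Cells with many TEX101 molecules were found in pig alone. No cattle germ-like cell held more than 4 TEX101 UMIs, in any of the 3 animals, whereas the highest pig cells held 14, 8 and 62. Cells with 5 or more TEX101 UMIs numbered 25, 2 and 56 in pig 1, 2 and 3. They carried 63.4%, 29.5% and 81.5% of the TEX101 UMIs in germ-like cells of these pigs. The 2 cells of pig 2 held 13 TEX101 UMIs and had a median of 25551 UMIs, so its share rests on few and deep cells. The cell with 62 TEX101 UMIs held 39 LY6K and 38 LYPD4 UMIs among 15838. For LY6K in cattle, cells with 5 or more held 0%, 14.5% and 57.4% of its germ-like UMIs in animals 1, 2 and 3. The maximum in 1 cell was 3, 7 and 15 UMIs. The germ-like cells of these animals had median depths of 3554.5, 6189 and 16908 UMIs, and the part of depth in these shares was not tested. Cells with at least 1000 UMIs were also thinned to 1000 UMIs, and shallower cells were left out. TEX101 was then seen in 3.86% ± 3.52 of cattle and 7.01% ± 5.20 of pig germ-like cells. LY6K was seen in 10.9% ± 1.48 and 11.3% ± 6.64, and LYPD4 in 0% and 5.12% ± 3.20 (SD, n = 3). For TEX101 and LY6K these differences between species were smaller than the spread between animals.

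**Figure D1:**
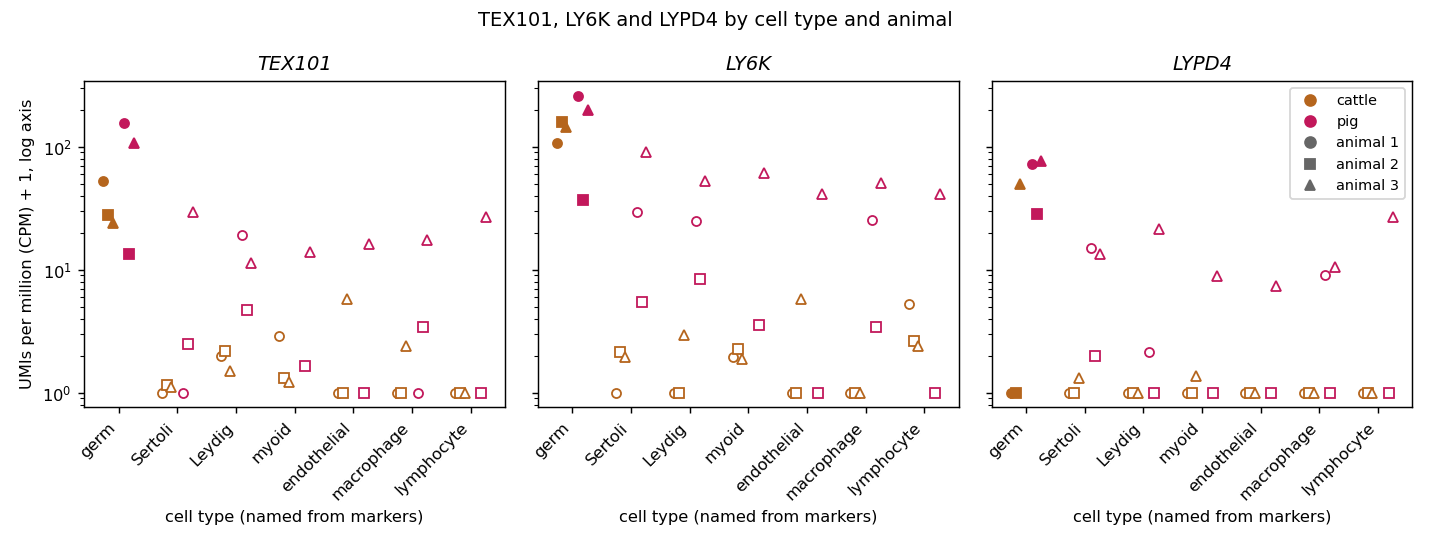
Level of TEX101, LY6K and LYPD4 as CPM + 1 (log axis) in each named cell type, with 1 point per animal, filled for germ-like cells. Germ-like cells lie highest within every pig for all 3 genes, and within every cattle animal for TEX101 and LY6K; LYPD4 in cattle rises above 1 CPM in animal 3 only, through a single barcode.

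Other testicular cells held far fewer UMIs of these genes in cattle than in pig. In the cattle cells outside the germ-like cluster TEX101 stood at 0.983, 0.260 and 0.240 CPM, LY6K at 0.655, 1.11 and 1.03, and LYPD4 at 0, 0 and 0.274. The germ-like level was 52.1, 103 and 95.04 times that of all other cells for TEX101 and 162, 144 and 140 times for LY6K. The 516 germ-like cells, beside 16966 others, held 90.6% of the TEX101 UMIs, 94.0% of the LY6K UMIs and 95.8% of the LYPD4 UMIs. The LYPD4 share rests on the deep barcode of cattle 3, which held 181 of the 183 germ-like LYPD4 UMIs, while all other cells held 8. No order could be read among the other cattle cell types, since the highest value of each gene there, such as 4.81 CPM of TEX101 in endothelial-like cells, came from 1 UMI in 1 animal or stood on at most 12 UMIs.

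In pig the other cells stood at 16.9, 1.42 and 17.0 CPM for TEX101, 24.2, 4.32 and 52.7 for LY6K and 2.16, 1.10 and 9.80 for LYPD4. The germ-like level was 9.18, 8.69 and 6.28 times as high for TEX101, 10.7, 8.30 and 3.79 times for LY6K and 32.7, 24.8 and 7.73 times for LYPD4. Pig 3 was highest in LY6K, with a UMI in 23.3% of its other cells against 2.15% and 1.44% in pig 1 and 2. Thinning to 1000 UMIs kept only 588 of the 2515 other cells of pig 1. After it, pig 3 had a LY6K UMI in 4.36% of its other cells, against 2.89% and 0.42% in pig 1 and 2. Its LY6K level was 40.1 to 90.0 CPM in each of its named somatic types, in Sertoli-like, Leydig-like, myoid-like, endothelial-like, macrophage-like and lymphocyte-like cells alike, whose ranges over the pigs overlapped for all 3 genes. These other cells had median depths of 841, 3776 and 4874 UMIs in pig 1, 2 and 3, against 2811, 13239 and 14824 in germ-like cells. Free RNA in the droplets also gives UMIs to cells that do not express a gene, and its part in these levels was not tested.

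Among the 4 germ-like clusters of pig the level of the genes was highest in 1, cluster 8 (155, 14 and 238 cells of pig 1, 2 and 3). None of the genes had entered the clustering. TEX101 stood at 723, 60.5 and 436 CPM there, in 49.7%, 28.6% and 52.9% of its cells, LY6K at 1177, 129 and 729 CPM and LYPD4 at 318, 431 and 275 CPM. The pigs lay far apart for TEX101 and LY6K, with pig 2 lowest in both, on 14 cells. These 14 cells held 8 TEX101 UMIs, against 19 in cluster 11 and 16 in cluster 6 of pig 2. They held 17 LY6K UMIs, against 58 and 41, so most molecules of both genes in pig 2 lay outside cluster 8. For LYPD4 pig 2 was highest, but 48 of the 57 LYPD4 UMIs of the 14 cells lay in 1 cell of 26960 UMIs. The LYPD4 level of pig 2 thus rests on that cell. Over all its cells this cluster held 1788 CPM of a list of 28 meiotic genes, 29.4 CPM of a list of 10 spermatogonial genes, 45.8 CPM of the meiotic recombinase DMC1 and 48.6 CPM of STRA8, which starts meiosis.

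In cluster 11 the genes were lower, with TEX101 at 49.2, 20.9 and 36.4 CPM, LY6K at 65.6, 63.9 and 90.2 and LYPD4 at 28.7, 17.6 and 34.8. That cluster had the highest level of the spermatogonial list, 502 CPM, together with 912 CPM of the meiotic list. DMC1 stood there at 4.10, 44.1 and 41.1 CPM in pig 1, 2 and 3, against 49.7, 15.1 and 46.7 CPM in cluster 8. It was thus not particular to cluster 8, and in pig 2 it was higher in cluster 11. Clusters 6 and 10 held 489 and 741 CPM of the meiotic list, and 2.64 and 0.721 CPM of DMC1. TEX101 was at 13.6, 12.8 and 3.48 CPM in cluster 6 and at 3.88, 0.786 and 10.7 CPM in cluster 10, below the 16.9 and 17.0 CPM of all other cells in pig 1 and pig 3. In pig 2 cluster 6 lay above the 1.42 CPM of its other cells and cluster 10 below it. LY6K in pig 3 was at 22.4 and 51.9 CPM in clusters 6 and 10, below the 52.7 CPM of its other cells, and LYPD4 at 9.48 and 19.6 CPM against 9.80. In pig 1 and pig 2 both genes lay above the other cells in both clusters. LY6K was at 27.1 and 29.1 CPM against 24.2 in pig 1 and at 32.7 and 9.43 against 4.32 in pig 2. LYPD4 was at 9.05 and 3.88 CPM against 2.16 in pig 1 and at 10.4 and 8.65 against 1.10 in pig 2.

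**Figure D2:**
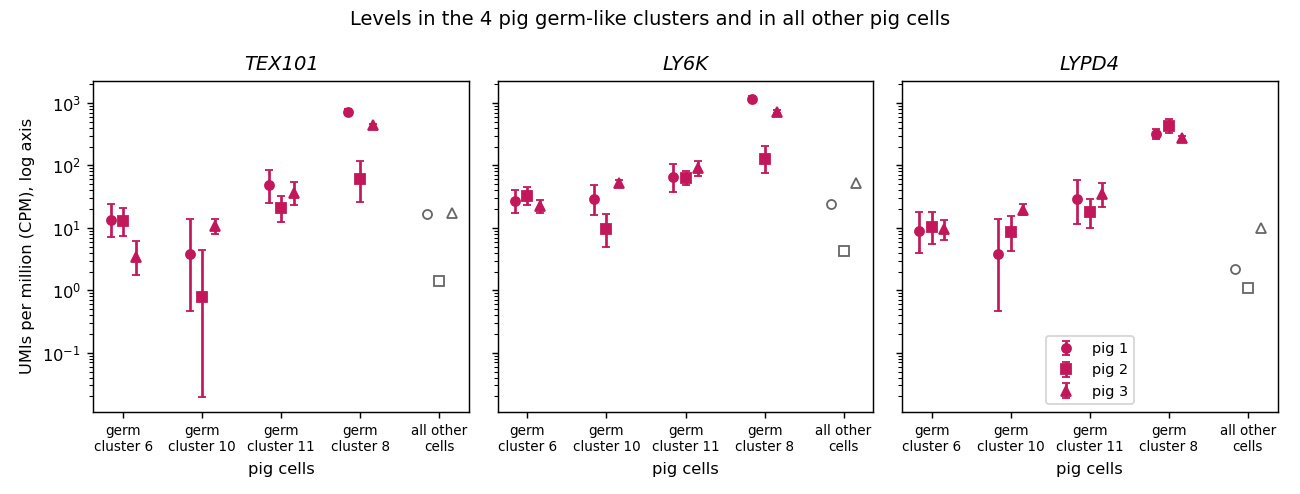
Level of TEX101, LY6K and LYPD4 (CPM, log axis) in the 4 pig germ-like clusters and in all other pig cells, with 1 point per pig and exact 95% Poisson intervals, which cover counting error only. All pigs are highest in cluster 8 for each gene. In pig 2 cluster 6 lies above the open symbols of the other cells, with TEX101 at 12.8 against 1.42 CPM.

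In pig these genes stood at a higher level in the germ-like cells with meiotic transcripts. Germ-like cells were set apart when at least 2 genes of the meiotic list had a UMI after thinning to 1000 UMIs, which gave 123 of 593, 41 of 258 and 195 of 698 cells in pig 1, 2 and 3 and 15 of 76, 72 of 216 and 75 of 218 in cattle. In pig, TEX101 was at 667, 47.1 and 374 CPM in these cells against 49.5, 6.26 and 33.3 CPM in the rest. LY6K was at 1084, 79.1 and 618 CPM against 92.9, 28.3 and 84.7 CPM. Of the cells with a LY6K UMI, however, 59, 17 and 144 lay in the meiotic class and 77, 58 and 284 in the rest. LYPD4 was at 268, 122 and 241 CPM against 32.0, 10.5 and 30.3 CPM, and all 3 genes were higher in the meiotic class of every pig. In pig 2, 48 of the 65 LYPD4 UMIs of the meiotic class lay in 1 cell. Clusters 6, 10 and 11 held 489, 741 and 912 CPM of the meiotic list, so sampling of UMIs can put some of their cells in this class. Its part in the pig split was not tested.

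In cattle the same split gave no common direction. The meiotic list stood at 984, 1383 and 1426 CPM over the 1 cattle germ-like cluster in animals 1, 2 and 3. At such levels the sampling of UMIs can by itself put a thinned cell in the meiotic class. Whether the split sets stages apart in cattle was not tested, so its outcome there says nothing on stage. TEX101 was at 107, 24.6 and 19.9 CPM in cells of the meiotic class against 38.9, 27.9 and 24.3 CPM in the rest, higher in animal 1 alone. LY6K was at 160, 216 and 119 CPM against 94.99, 133 and 156 CPM, higher in animals 1 and 2. LYPD4 was at 0, 0 and 140 CPM against 0 in the rest, through the deep barcode of cattle 3.

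Few germ-like cells held 10 or more UMIs of the late germ cell list, 1 in cattle 3, 2 in pig 2, 2 in pig 3 and 0 in the other animals. LYPD4 was at 1016, 815 and 1534 CPM in them, TEX101 at 0, 32.0 and 79.7 CPM and LY6K at 44.9, 79.9 and 1435 CPM, so LYPD4 was high in all 3 animals and LY6K in pig 3 alone. A pig 2 cell of 26960 UMIs held 48 LYPD4 UMIs beside 40 of LDHC and 26 of PGK2, the phosphoglycerate kinase of late germ cells, but 1 of LY6K and 0 of TEX101. A pig 3 cell of 24718 UMIs held 45 LYPD4 and 45 LY6K UMIs beside 21 of LDHC, but 3 of TEX101. With the deep cattle 3 barcode these were chosen after their values were seen, and so few cells allow no comparison.

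TEX101 and LY6K were found together in single cells of both species, and LYPD4 with them in pig. In pig, LY6K was at 1490, 98.6 and 668 CPM in the germ-like cells with a TEX101 UMI (322 in all, 24 of them in pig 2 and 197 in pig 3), against 68.8, 28.1 and 52.9 CPM in those without. LYPD4 was at 395, 43.0 and 253 CPM against 20.9, 25.2 and 20.3 CPM. LY6K had a UMI in 62.4%, 62.5% and 79.2% of the TEX101-positive cells and in 13.7%, 25.6% and 54.3% of the others. Median cell depth was 2477, 15318 and 10950 UMIs with TEX101 and 2990.5, 12905 and 16186 without. The cells with TEX101 were thus deeper in pig 2 and shallower in the other pigs. The part of cell depth in these differences was not tested.

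In cattle, LY6K was at 366, 264 and 210 CPM in the 10, 30 and 56 TEX101-positive cells against 73.1, 137 and 119 CPM in the others. It had a UMI in 60.0%, 73.3% and 82.1% of the positive cells and in 20.8%, 42.5% and 64.8% of the others. Here the positive cells were deeper in animals 2 and 3, with medians of 8431 and 17571 UMIs against 5895.5 and 16316, and shallower in animal 1, with 3147.5 against 3684.5. Every animal of both species thus had a higher LY6K level where TEX101 was seen. LYPD4 did not follow in cattle, with a UMI in 0, 0 and 1 of the TEX101-positive cells. It had no UMI in the other germ-like cells of cattle 1 and 2, and in cattle 3 its level was 1.997 CPM in the positive cells against 66.3 CPM in the others, which hold the deep barcode.

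**Figure D3:**
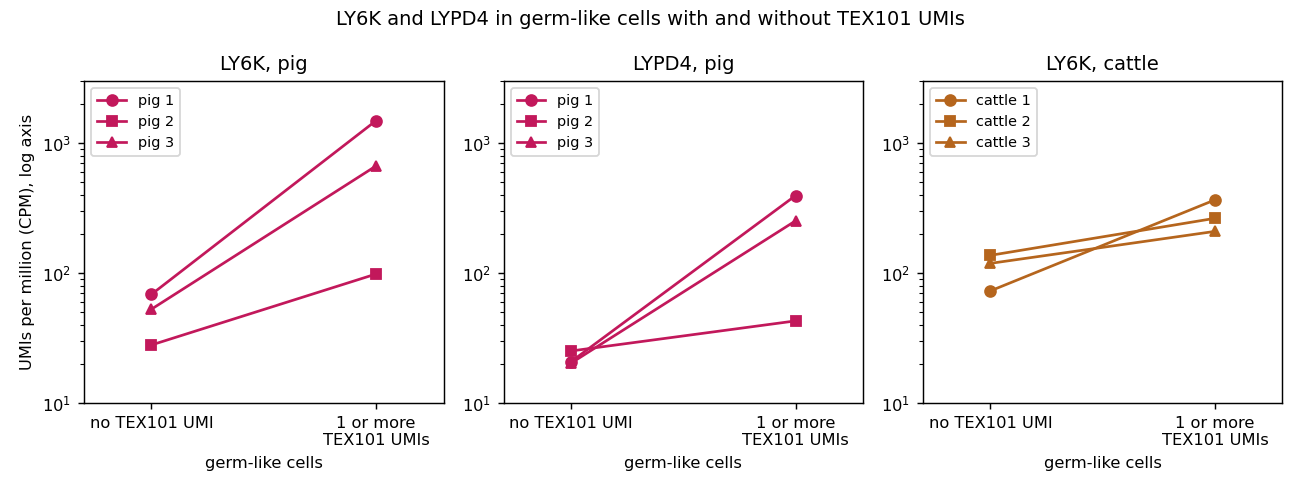
LY6K in pig, LYPD4 in pig and LY6K in cattle (CPM, log axis) in germ-like cells without and with a TEX101 UMI, with a line for each animal. All lines of these 3 panels rise. LY6K in pig 1 goes from 68.8 to 1490 and LY6K in cattle 3 from 119 to 210.

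Over the sums of each animal and named cell type, the genes most like TEX101 in cattle were the unnamed gene ENSBTAG00000031517 (Pearson r of log2(CPM + 1) 0.96), SPOCD1, a factor of piRNA-directed DNA methylation (0.95), MGC137030 (0.95), the LY6 family gene GML (0.94) and SEC1 (0.94), over 20 sums. LY6K was followed there by KRT25 (0.97), DLK1 (0.96), SVOP (0.95), SNAP91 (0.95) and GALNT17 (0.95), and correlated with TEX101 at 0.90. For LYPD4 in cattle the closest was TRIM69 at 0.996, over sums in which 181 of the 183 germ-like LYPD4 UMIs of cattle 3 came from the deep barcode.

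In pig, over 18 sums, TEX101 was closest to COX6B2, the testis form of a cytochrome c oxidase subunit (0.93), to MT3 (0.92) and to ZPBP, an acrosomal protein (0.91). CT55 and LYPD4 itself were among the closest to LY6K (0.91 and 0.90), and CT55, PAGE2B and SYCP1, a synaptonemal complex protein, among the closest to LYPD4 (0.92, 0.92 and 0.92). TEX101 correlated with LY6K at 0.82 and with LYPD4 at 0.71. The sums of an animal share its library and depth, so these values describe the tables and carry no p.

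The other genes of the cells with TEX101 were compared with those of germ-like cells without it, in sums per animal. The edgeR quasi-likelihood test called 1 of 13985 pig genes higher and 0 lower (0.00715% of genes higher, Benjamini-Hochberg adjusted p below 0.05), and the called gene was TEX101 itself, by which the cells were split. At an unadjusted p below 0.05 there were 662 genes, and DESeq2 called 33 higher and 2 lower. The sums with and without TEX101 were made from 1 library in each animal, which pairs them. With the animal as a block the edgeR test called 376 genes higher and 317 lower, 2.69% and 2.27% of genes, and the pig results that follow are those of the blocked fit, chosen after both fits had been seen.

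Among the gene lists, the meiotic list had the most genes called higher with TEX101 in pig, in the blocked fit. Of 28 fixed in the list, 23 were tested, of which 15 were higher and 0 lower, with a median log2 fold change of 1.16 against -0.03 over all genes, and 0 of 23 were called without the block. DMC1, the recombinase of meiotic strand exchange, was at 73.2, 35.4 and 46.7 CPM with TEX101 and at 1.13, 11.99 and 3.18 CPM without (log2 fold change 3.21 ± 0.30 SE, adjusted p = 4.8e-23). MEIOB, which acts on single-stranded DNA, was at 73.2, 5.06 and 20.3 CPM against 3.95, 1.89 and 2.27 (3.14 ± 0.40, adjusted p = 2.5e-12). TERB2, which ties telomeres to the nuclear envelope, rose by 2.19 ± 0.34, MEIOC, which keeps cells in meiotic prophase, by 2.05 ± 0.35 and SYCP1 by 1.80 ± 0.19. DMC1, MEIOB and SYCP1 were higher with TEX101 in every pig. The list was chosen with earlier results of these data known. In pig 1 and pig 3 most germ-like cells with TEX101 lay in cluster 8, in pig 2 few did. That cluster had the highest level of the meiotic list among the germ-like clusters. These calls therefore describe the cells with TEX101 and are no test of their stage.

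STRA8 rose by 2.02 ± 0.32 (adjusted p = 7.9e-08), whereas DMRT1, which holds spermatogonia in mitosis, fell by 0.63 ± 0.16 on the log2 scale (adjusted p = 0.0047). Of the 9 spermatogonial genes tested, 0 were higher and 1 was lower, ZBTB16, a factor of undifferentiated spermatogonia, which fell by 0.95 ± 0.25 on the log2 scale. The spermatogonial list had a median log2 fold change of -0.165 against -0.03 over all genes. Of the 11 germ cell markers tested, 1 was higher, DDX4, and 2 were lower, ELAVL2 and UCHL1, against 2.69% and 2.27% of all genes. UCHL1, a deubiquitinase of spermatogonia, was at 179, 266 and 257 CPM with TEX101 and at 660, 631 and 467 CPM without. It fell by 1.41 ± 0.16 on the log2 scale. Among the late genes LDHC rose by 0.83 ± 0.23, as 1 of 6 tested. Of the somatic marker lists 0 genes were called.

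Among the genes with the largest change in the pig comparison were ENSSSCG00000038121, which carries no symbol, with a log2 fold change of 4.40 ± 0.41, ENSSSCG00000039313 with 3.82 ± 0.22, GPR137C with 3.40 ± 0.71, PIH1D3 with 3.38 ± 0.42 and TCTE3 with 3.33 ± 0.65. PIH1D3 and TCTE3 act in or on axonemal dynein. LY6K and LYPD4, given above, had fitted changes of 3.36 and 3.03. PPP1R3G and SPP1 led the falling genes, each with 34 UMIs in all and 0 in the TEX101-positive cells, followed by SLPI (0.241 against 4.61 CPM, means of 3 pigs), ST6GALNAC3 (3.37 against 14.7) and TMEM130 (1.93 against 11.99). The number of calls moved with each animal left out, to 188 higher and 68 lower without pig 1, 574 and 404 without pig 2 and 39 and 36 without pig 3.

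In cattle the same test called 1 of 11593 genes higher, TEX101 itself, and 0 lower (0.00863% of genes higher), with 355 genes at an unadjusted p below 0.05 and 1 and 0 by DESeq2. With the animal as a block 26 genes were higher and 227 lower, 0.224% and 1.96% of genes. The lowest of them were RGR, HRASLS5, DNAH17, STKLD1 and INSL6, with 34 to 129 UMIs over the sums. Without the deep barcode of cattle 3, which has no TEX101 UMI, RGR kept 18 of its 60 UMIs and the remaining genes of these fell below the minimum of 10 UMIs for the test. Without that barcode 26 were higher and 148 lower of 11357, 0.229% and 1.3% of genes. The cattle results of this TEX101 comparison that follow are those without it, unless stated. The contrasts of germ-like with other cells and of pig with cattle, given further below, keep it.

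Meiotic genes were not called with TEX101 in cattle once the deep barcode was left out. Of 26 tested, 0 were higher and 0 lower, with a median log2 fold change of 0.03 against -0.04 over all genes. With that barcode kept the blocked fit called 0 higher and 2 lower, SYCE2 (-1.60) and SYCE1 (-1.10), both of the synaptonemal complex, and the late gene LDHC also fell, by 1.23 on the log2 scale. Without it their values were -0.25, -0.72 and -0.10, none past the threshold. DMC1 changed by -0.49, SYCP1 by -0.23 and HORMAD1 by 0.36, none past the threshold. Of the 9 LY6 family genes tested, 1 was higher, GML, and 1 was lower, LY6E, against 0.229% and 1.3% of all genes. GML, a LY6 family neighbour of LY6K, rose by 0.74 ± 0.20 (adjusted p = 0.020), from 134.7, 136 and 68.6 CPM without TEX101 to 641, 193 and 137 CPM with it. PPP1R14D (1.74 ± 0.39), C15H11orf97 (1.44 ± 0.37), SLC45A1 (1.35 ± 0.32), ACSF3 (1.32 ± 0.33) and the homeobox gene HOXA3 (1.29 ± 0.30) led the rising genes, followed by GABBR1 and OGDHL (1.04 each) and GNAS (1.02). CMSS1, LHPP, PSAT1, an enzyme of serine synthesis, CBY1 and FTO led the falling genes, with LHPP at 13.95 against 54.8 CPM and PSAT1 at 13.3 against 56.2 CPM (means of 3 animals), and ZBTB16 fell by 0.78 on the log2 scale, with its CPM lower in 2 of 3 animals. With the deep barcode kept, the blocked calls were 37 higher and 316 lower without cattle 1, 13 and 137 without cattle 2, and 1 and 0 without cattle 3.

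**Figure D4:**
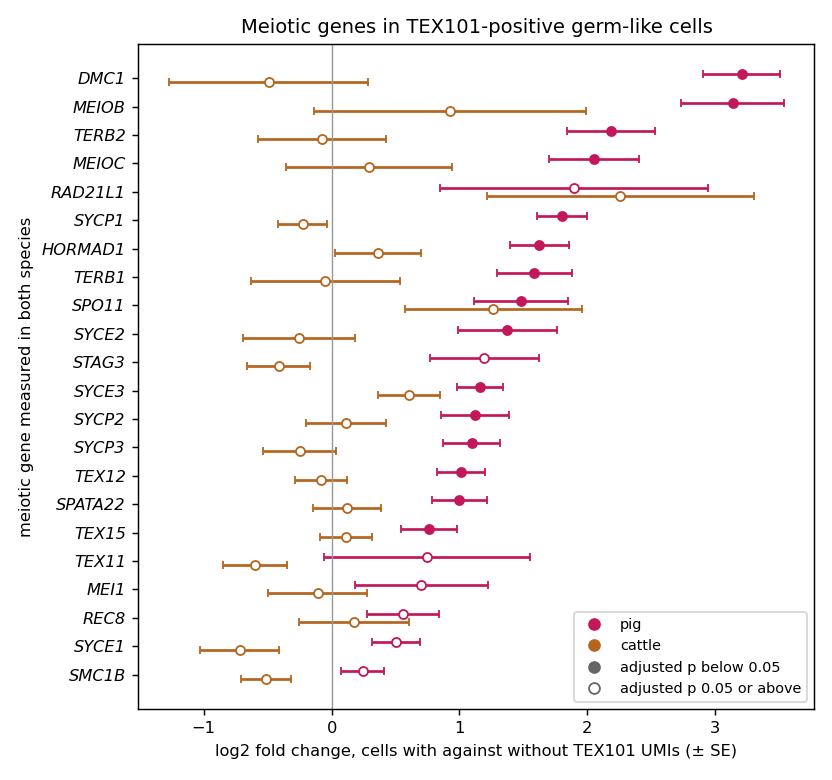
Log2 fold change ± SE of meiotic genes between germ-like cells with and without TEX101 UMIs, with the animal as a block, in pig and in cattle without the deepest cell. Filled points passed an adjusted p of 0.05; pig points reach 3.21 for DMC1, and all cattle points are open.

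Some relatives of these genes were called in germ-like cells. Of 30 other LY6 family genes 11 were tested in cattle germ-like against all other cells, of which 4 were higher and 1 lower, against 23.2% and 26.7% of all genes tested, and 13 in pig, of which 5 were higher and 4 lower, against 17.2% and 20.4% of genes. Germ-like cells were defined by clustering on expression, so these calls describe them and test nothing. GML was the clearest in cattle, at 191, 146 and 83.9 CPM against 1.31, 1.04 and 0.890 CPM. LY6G6C, LY6H and LYPD1 were higher in germ-like cells of both species and LYPD3 and LYPD6 in pig, while LY6D was lower in cattle and CD59, the complement inhibitor, the lipase carrier GPIHBP1, PLAUR, the urokinase receptor, and SPACA4 were lower in pig. In the pig cells with TEX101, 1 of 11 was called higher, against 2.69% of all genes, with the animal as a block. It was LY6G6C, which rose by 2.84 ± 0.56 (adjusted p = 4.3e-05). Without the block 0 of 11 were called.

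TEX101 is known in mice for its link to ADAM proteins of the sperm surface, whose transcripts were read here. Of 15 genes of sperm ADAM proteins, chaperones and processing factors, 10 were tested in cattle, of which 7 were higher in germ-like cells (23.2% of all genes), and 9 in pig, of which 4 were higher (17.2% of all genes), with 0 lower in both. In pig cells with TEX101 2 of 7 rose (2.69% of all genes), the chaperone CALR3 by 1.73 ± 0.26 and ADAM3A by 1.80 ± 0.56, both with the animal as a block. Without the block 0 of 7 were called. With the block and cells at 500 or more UMIs 1 of 8 was higher, CALR3, and ADAM3A was not called. In cattle with all cells 1 of 9 fell, ADAM3A, which fell by 4.64 on the log2 scale with the block, and it was under the minimum for the test without the deep barcode. Of 30 genes of GPI anchor synthesis 27 were tested in pig, with 2 higher and 1 lower in germ-like cells (17.2% and 20.4% of all genes) and 0 called in cells with TEX101. In cattle 26 were tested, with 3 higher and 11 lower in germ-like cells (23.2% and 26.7% of all genes), a split that turned to 7 and 5 when libraries were scaled by size alone.

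Between the species, edgeR called 32.1% of 12077 shared symbols higher and 25.2% lower in pig germ-like cells. Of the LY6 family 10 genes were tested, of which 4 were higher in pig and 0 lower, with a median log2 fold change of 1.05 against 0.23 over all genes. CD59 was at 42.7, 68.8 and 44.7 CPM in pig 1, 2 and 3 and at 14.6, 11.7 and 7.57 CPM in cattle 1, 2 and 3 (2.54 ± 0.40, adjusted p = 6.0e-05, CPM over the shared symbols). LYPD6 had 116 UMIs in pig and 1 in cattle, LYPD2 34 and 0, and LY6H was 1.44 ± 0.56 higher (adjusted p = 0.036). Genes of GPI anchor synthesis were higher in pig for 11 of 26 and lower for 3, led by PIGV, PIGQ and PIGA, which starts the anchor (4.27 ± 0.51). Of the ADAM list 2 of 10 were higher and 4 lower, including ADAM3A, whose direction turned without cattle 3.

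Many TEX101-rich barcodes of pig 3 lay under the depth at which a barcode was taken as a cell. In pig 3 that minimum was 3459 UMIs, and 119 barcodes below it held 5 or more TEX101 UMIs, against 60 kept cells. These 119 had a median of 1175 UMIs and held 1763 TEX101, 1865 LY6K and 250 LYPD4 UMIs, with LY6K in all 119 and LYPD4 in 90. The 60 kept cells had a median of 8012.5 UMIs and held 1049 TEX101, 1489 LY6K and 527 LYPD4 UMIs. Germ cell markers stood at 728 CPM in the 119 barcodes and 625 CPM in the 60 kept cells, and the meiotic list at 3556 and 3425 CPM. Barcodes of pig 3 under the minimum with no TEX101 held 87.8 CPM of the markers and 186 CPM of the list. LYPD4 was at 0.142 UMIs per TEX101 UMI in the shallow barcodes and at 0.502 in the kept cells, and LY6K at 1.06 and 1.42. In pig 1 and pig 2 only 3 and 1 such barcodes lay under the minimum, against 25 and 3 kept cells. With a common minimum of 500 UMIs, germ-like TEX101 in pig 3 rose from 107 to 250 CPM, LY6K from 200 to 375 and LYPD4 from 75.8 to 103.

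**Figure D5:**
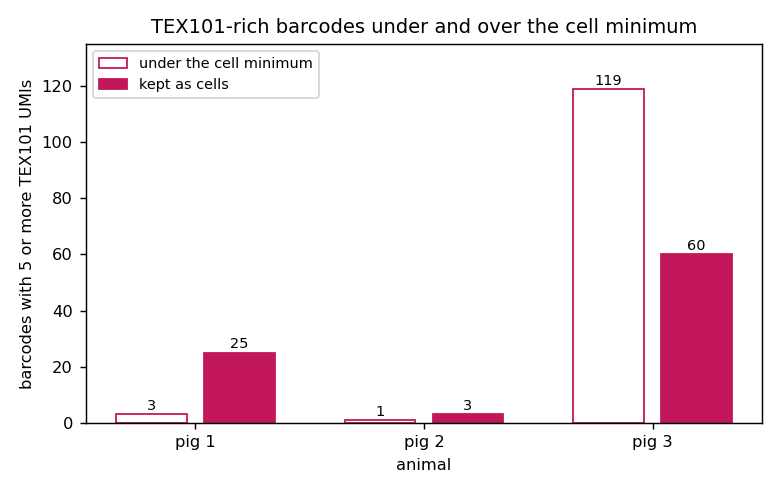
Number of pig barcodes with 5 or more TEX101 UMIs that lay under the cell minimum of their library (open) or were kept as cells (filled). Pig 3 has 119 under the minimum and 60 kept, pig 1 has 3 and 25.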

How the data were processed

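Single-cell RNA-sequencing libraries of testis from 3 cattle and 3 pigs were used, each library counted as 1 animal. The authors used Cell Ranger with the ARS-UCD1.2 or Sscrofa11.1 genome and deposited raw UMI count tables without normalization. The study's mouse data were not analysed here. The submitters' processing notes give version 2.1.0 and the headers of the pig files version 3.0.2. The cattle files hold all 737280 barcodes of the chemistry, the pig files 6220, 22920 and 8808 barcodes with at least 500 UMIs, and the totals were 5805223, 27409347 and 53325608 UMIs in cattle 1, 2 and 3 and 6245189, 40099873 and 33500750 in pig 1, 2 and 3. The members and gene lists were chosen with earlier results of these data known.

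Barcodes were taken as cells by the rule of Cell Ranger 2 (the 99th percentile of the 3000 largest totals divided by 10, at least 460, 972 and 2644 UMIs in cattle and 696, 2445 and 3459 in pig) with at least 200 genes. The highest Scrublet scores, 0.8% for every 1000 cells, were left out as doublets (scanpy 1.11.5), which removed 41 to 613 cells per library. Cells of a species were clustered together on 2000 variable genes and 30 components (Leiden, resolution 1), without the 3 genes and the stage lists. A cluster was named from at least 3 fixed markers that were 2-fold above the median cluster, and such names can differ from the study's.

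Raw counts were summed per animal, and genes with 10 or more counts over all sums were compared by edgeR 4.0.16 in R 4.3.3 (quasi-likelihood, TMM, Benjamini-Hochberg at 0.05), with DESeq2 1.42.0 as an alternative. The sums of an animal were made from 1 library, and their deviations from the group means correlated at 0.269 to 0.618, so they are paired and a fit with a replicate block for the animal is given beside the main one. On simulated counts for TEX101-positive against other cells in pig, over 14000 genes, the unblocked test recovered a share of 0.45 of 4-fold and 0.04 of 2-fold changes, and 0.0577 of its calls were false. The blocked fit was not tested in this way.

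The genes named are the members, the 10 highest and 5 lowest called genes of each TEX101 comparison (at least 30 UMIs, same direction in every animal), the 5 most correlated genes of each member, and up to 4 called genes of each list in each direction. In the TEX101 comparisons the rule was applied to the blocked fit, and 1 gene it named in pig is not reported here. TERB2, HORMAD1, UCHL1 and other genes outside it, and the single deep cells, were chosen after their values were seen. Shares carry exact binomial and levels exact Poisson 95% intervals, a share of 0 cells is given the limit of 3 cells, and both cover counting error only.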

Additional observations from a re-analysis of the deposited data

Results flagged for a closer look

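UMIs of these genes were found in barcodes under the cell minimum, which no comparison above uses, above the limit that a count of 0 allows. For TEX101 they numbered 5, 25 and 34 in cattle 1, 2 and 3 and 49, 136 and 2286 in pig 1, 2 and 3. For LY6K they numbered 4, 59 and 172 in cattle and 63, 320 and 3577 in pig. For LYPD4 they numbered 6 in cattle 3 and 14, 111 and 638 in pig 1, 2 and 3. The 2286 TEX101 UMIs of pig 3 exceed the 1235 in its germ-like cells, whereas the 49 of pig 1 compare with 317. In pig 2 the 136 TEX101 UMIs exceed the 44 of its germ-like cells, and 1 such barcode held 5 or more. These barcodes of pig 3 carried 187 CPM of TEX101, 293 of LY6K and 52.2 of LYPD4, against 17.0, 52.7 and 9.80 CPM in its cells outside the germ-like clusters. Their cell type was not determined.

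TERB2 moved in opposite directions with TEX101 in the species, higher in 3 of 3 pigs (log2 fold change 2.19 with the animal as a block) and lower in 3 of 3 cattle (-1.18, adjusted p = 0.30). The difference between the species was not tested. Without the deep barcode of cattle 3 the cattle value was -0.08 and TERB2 was higher in 1 of 3 animals.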

How the results depend on the processing

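The counts of genes called for germ-like against all other cells moved with the scaling and the animals. Library size alone, without TMM, gave 6254 higher and 1827 lower genes in cattle, with the median of all genes moving from -0.16 to 0.94 on the log2 scale, and germ cells chosen by marker UMIs gave 1667 higher genes in pig. Leaving out 1 animal gave 1523 to 4022 higher and 2065 to 4409 lower genes in cattle, and 878 to 1623 higher and 1453 to 1931 lower genes in pig.

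For TEX101-positive against other germ-like cells in pig, DESeq2 called 33 higher and 2 lower, no filter on low counts 20 and 2, the replicate block 376 and 317, and a split at 2 or more TEX101 UMIs 296 and 177. Alternatives chosen after seeing the data gave 765 and 777 for that split with the replicate block, 357 and 326 for cells at 500 or more UMIs with the block and 102 and 24 for DESeq2 with the block. Leaving out 1 pig gave 0 to 33 higher without the block, and with it 188 higher and 68 lower without pig 1, 574 and 404 without pig 2 and 39 and 36 without pig 3. In cattle no filter gave 46 lower genes, the replicate block 26 and 227, the 500-UMI minimum with the block 22 and 138, DESeq2 with the block 0 and 89, and the block without the deepest cell 26 and 148. Leaving out 1 animal gave up to 13 lower genes without the block, and with it 37 higher and 316 lower without cattle 1, 13 and 137 without cattle 2 and 1 and 0 without cattle 3. The split at 2 or more UMIs was not run in cattle, where only animal 3 had 10 such cells. The block changed no call of the contrasts of germ-like with other cells by over 1.5 times.

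Naming clusters against all other cells, which left clusters 8 and 10 unnamed, gave pig germ-like means of 15.5 CPM for TEX101, 38.3 for LY6K and 13.5 for LYPD4, and 30.9, 55.5 and 17.7 CPM in the meiotic class. Thinning to 1000 UMIs, with shallower cells left out, lowered the mean share of cells to 3.86% for TEX101 and 10.9% for LY6K in cattle. In pig it lowered the share to 7.01%, 11.3% and 5.12% for TEX101, LY6K and LYPD4. LYPD4 in the pig meiotic class was 100.4 CPM with 1 meiotic gene required and 132 CPM after thinning to 2000 UMIs. LYPD4 in cattle cells outside the meiotic class was 0.254 CPM with doublets kept and 0.284 CPM at 500 or more UMIs. ADAM3A, lower in pig than cattle germ-like cells (-2.04), was 1.27 without cattle 3, and ranged from -2.57 to 1.27 over the animals left out. The causes were not tested. The germ-like TEX101 levels rest on 15, 35 and 85 UMIs in cattle and 317, 44 and 1235 in pig, which limits cattle and pig 2.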
